A study of Homo sapiens with 12 samples.

Results

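Antisense RNAs are transcripts read from the strand opposite to another gene. In RNA sequencing of 2 triple-negative breast cancer cell lines, the rows that the deposited expression table types as antisense were taken, and those with at least 2 RPKM (reads per kilobase of transcript, scaled to the library total) in at least 2 of the 12 libraries were kept. The rule kept 319 of 3151 antisense rows, in a table of 32152 rows of all gene types. Because measured levels chose these 319 RNAs, their presence above 2 RPKM is a description and not a result. Just inside the limit, by the second-highest library, lay RP11-755F10.1 at 2.0005, GABPB1-AS1 at 2.02 and NR2F2-AS1 at 2.04 RPKM, and just outside it RP11-119B16.2 at 1.998, RP11-383C5.8 at 1.996 and NPPA-AS1 at 1.98.

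Natural antisense RNAs are long RNAs that mostly do not code for protein. Some start next to the promoter of a protein-coding gene and run away from it, some lie inside a gene, and some run into its far end. Well-studied examples recruit or block chromatin regulators at a neighbouring gene, share a promoter with it, or host small nucleolar RNAs in their introns. In breast cancer the group is best known through HOTAIR, read from the HOXC cluster of developmental transcription factor genes.

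MDA-MB-231 and Hs-578T are human breast cancer lines of mesenchymal shape without oestrogen receptor. Each was sequenced as the parental control, as a line labelled ERK5-ko, made with CRISPR/Cas9 guides to MAPK7 (the gene of the kinase ERK5) and grown from single sorted cells, and as a line labelled MEK5DD, which carries a mutant of the upstream kinase MEK5 that keeps ERK5 switched on. The 6 groups held 2 libraries each, at passages 29 and 30 (MDA-MB-231 parental control), 7 and 8 (ERK5-ko), 10 and 11 (MEK5DD), 83 and 84 (Hs-578T parental control) and 8 and 9 (both engineered Hs-578T lines). Passage and clone therefore cannot be told apart from the genotype. Nothing says that the 2 libraries of a group came from separate cultures other than their successive passages, so p-values measure the spread between these libraries, which may be technical.

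Library totals, recovered from the steps in the RPKM values, ran from 20248162 to 27791195 reads, and 0.186 to 0.214% of each total lay on the 319 RNAs. The lowest number of reads behind a value of 2 RPKM or more was 8. MAPK7 itself lay between 13.3 and 18.1 RPKM in every library and was not lower in either ERK5-ko line (16.3 and 17.8 against 13.3 and 14.3 RPKM in MDA-MB-231, 17.8 and 18.1 against 14.0 and 15.98 RPKM in Hs-578T), which goes against the label at the RNA level. Reads outside the edited part of MAPK7 do not check a frameshift, so the groups are called the libraries labelled ERK5-ko. By Western blot, the study reported ERK5 protein far below the parental level in both ERK5-ko lines. MAP2K5, the gene of MEK5, stood at 184 and 188 RPKM in MDA-MB-231 MEK5DD against 12.9 and 13.6 in its control, but at only 21.3 and 23.8 RPKM in Hs-578T MEK5DD against 14.6 and 16.9. Of the line markers, ESR1 (at most 0.120 RPKM) and PGR (at most 0.348) were near 0, ERBB2 was present at 27.8 to 56.8 RPKM, and VIM, CD44 and KRT18 were high (at least 141 RPKM). KRT18 stood at 692 and 671 RPKM in MDA-MB-231 ERK5-ko against 356 and 384 in its control, and at 547 and 596 in Hs-578T ERK5-ko against 213 and 141. Leukocyte PTPRC stayed at or under 0.396 RPKM, endothelial PECAM1 reached 6.48 RPKM in Hs-578T, and epithelial EPCAM was at most 0.0862 RPKM in Hs-578T. In MDA-MB-231 EPCAM held 18.4 and 19.5 RPKM in the control, 24.4 and 25.7 in ERK5-ko and 7.79 and 7.08 with MEK5DD. The part of these markers in the results was not tested.

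Most of the antisense RNAs lay across a protein-coding gene. By the positions in the table (GRCh38), 278 of the 319 shared at least 1 base with a protein-coding gene on the other strand, 48 of them with 2 or more, which gave 337 pairs with 329 genes. In 131 pairs the genes were head to head, with both starts in the shared stretch (median 841 shared bases). In 106 they were tail to tail, in 66 the antisense RNA lay wholly inside the gene, and in 34 the gene lay wholly inside the antisense RNA. In 29 members a protein-coding gene on the same strand also overlapped, and their reads are uncertain. The antisense RNA ran at a median of 23.3% of the RPKM of its partner (12.9% in head-to-head and 27.5% in tail-to-tail pairs), and in 103 pairs its mean level was above that of the partner.

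The strand of a read decides between an antisense RNA and its partner, and the counting setting is not given in the sources used here. As a check, 126 antisense rows of the table have every exonic base inside coding-gene exons of the other strand. In the 97 of these whose partner had at least 10 RPKM, the antisense row held a median of 0.0497% of the RPKM of the partner (0.00553 to 16.8%). The highest was RP11-263K19.6, itself among the 319 with a mean of 2.24 RPKM. How much of this range is stray reads was not tested. In 16 of the 337 pairs the antisense RNA stood under 1% of its partner. In GENCODE 29, 292 of the 319 were still typed antisense and 9 were typed protein-coding, among them MMP24-AS1 (there MMP24OS), RP4-614O4.11 and UMAD1.

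RefSeq (GRCh38.p14) held a promoter window, 250 bases before the start and 50 from it on, for 112 members whose start lay within 1000 bases of the start in the table. These windows were rich in CpG, the dinucleotide of CpG islands, with a median of 24 per 300 bases against 14 over all 35116 windows. The GC box GGGCGG, searched on both strands, was in 64.3% of them and in 45.0% of all windows. CCAAT was in 41.1% against 34.6%, TATAAA in 8.93% against 11.5%, TGANTCA (AP-1) in 3.57% against 7.71% and CTA and TAG with 4 bases of any kind between them (MEF2, a factor known as a target of ERK5) in 1.79% against 2.73%. The 112 windows belong to RNAs chosen by level, while the 35116 were not chosen by level. The part of that choice in these contrasts was not tested. In 42 head-to-head pairs with both windows the 2 starts lay a median of 694.5 bases apart, and in 7 of them the windows shared bases.

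The windows of 3 head-to-head pairs are shown because later results turn on them. VIM-AS1 and VIM, which codes for the intermediate filament vimentin, start 1744 bases apart and were both called higher with MEK5DD in MDA-MB-231. LOXL1-AS1 and LOXL1, which codes for an elastin cross-linking lysyl oxidase, start 1786 bases apart and were both called lower there. ZBED5-AS1 and ZBED5, a gene derived from a DNA transposon, start 164 bases apart within windows that share 263 bases, and only the antisense RNA was called between the lines. The windows are chr10:17229936-17230235 (minus strand, VIM-AS1), chr10:17227991-17228290 (plus, VIM), chr15:73928199-73928498 (minus, LOXL1-AS1), chr15:73926212-73926511 (plus, LOXL1), chr11:10857967-10858266 (plus, ZBED5-AS1) and chr11:10858004-10858303 (minus, ZBED5). Each is printed 5′ to 3′ on its own strand, with GGGCGG and CCAAT, on either strand, in capitals.
VIM-AS1: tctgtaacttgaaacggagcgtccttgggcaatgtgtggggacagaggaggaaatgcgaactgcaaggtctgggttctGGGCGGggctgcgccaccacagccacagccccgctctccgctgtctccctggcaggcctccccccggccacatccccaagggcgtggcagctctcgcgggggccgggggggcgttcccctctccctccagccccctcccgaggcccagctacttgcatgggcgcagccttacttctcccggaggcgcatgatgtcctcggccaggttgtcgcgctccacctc
VIM: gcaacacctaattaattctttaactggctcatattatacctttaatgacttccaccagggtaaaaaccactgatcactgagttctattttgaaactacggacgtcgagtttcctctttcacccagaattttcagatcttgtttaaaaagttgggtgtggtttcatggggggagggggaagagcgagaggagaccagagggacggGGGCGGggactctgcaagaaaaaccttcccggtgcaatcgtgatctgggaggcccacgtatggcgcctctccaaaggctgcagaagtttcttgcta
LOXL1-AS1: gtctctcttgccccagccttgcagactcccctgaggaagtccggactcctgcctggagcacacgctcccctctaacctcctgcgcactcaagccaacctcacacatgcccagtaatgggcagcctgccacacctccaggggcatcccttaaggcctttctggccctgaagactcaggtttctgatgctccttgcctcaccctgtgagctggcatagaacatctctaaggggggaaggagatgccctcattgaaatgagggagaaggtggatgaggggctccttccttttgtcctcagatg
LOXL1: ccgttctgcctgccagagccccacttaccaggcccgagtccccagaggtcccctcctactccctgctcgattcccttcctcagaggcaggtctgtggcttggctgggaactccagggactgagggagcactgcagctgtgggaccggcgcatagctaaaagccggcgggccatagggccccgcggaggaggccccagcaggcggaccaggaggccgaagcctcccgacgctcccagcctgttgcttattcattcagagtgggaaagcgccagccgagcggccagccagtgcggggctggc
ZBED5-AS1: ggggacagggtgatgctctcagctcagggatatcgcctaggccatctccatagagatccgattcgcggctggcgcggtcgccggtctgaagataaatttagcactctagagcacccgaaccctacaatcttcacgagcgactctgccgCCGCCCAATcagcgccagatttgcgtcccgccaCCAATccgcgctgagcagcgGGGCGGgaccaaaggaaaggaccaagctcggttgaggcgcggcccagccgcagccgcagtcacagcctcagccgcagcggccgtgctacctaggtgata
ZBED5: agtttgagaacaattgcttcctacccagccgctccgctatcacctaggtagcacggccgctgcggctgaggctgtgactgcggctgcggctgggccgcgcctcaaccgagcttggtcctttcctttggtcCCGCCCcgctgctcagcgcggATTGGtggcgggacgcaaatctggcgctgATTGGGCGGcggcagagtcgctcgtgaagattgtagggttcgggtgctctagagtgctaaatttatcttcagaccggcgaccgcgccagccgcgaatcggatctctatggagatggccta
The CpG count was 20 for VIM-AS1 and 10 for VIM, 3 for LOXL1-AS1 and 17 for LOXL1, and 28 and 29 for the ZBED5 pair. The VIM windows held 1 GC box each, the LOXL1 windows none of the searched motifs, and the ZBED5 windows 2 GC boxes and 2 CCAAT boxes each. In each ZBED5 window 1 GC box overlaps 1 CCAAT box. A match is a description of the letters, not a site of binding.

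Levels among the 319 spanned a wide range. The mean over the 12 libraries ran from 0.731 to 195 RPKM with a median of 2.38, and 36 RNAs had a mean of at least 10 RPKM. At 2 RPKM or more in all 12 libraries stood 73 RNAs, 152 reached 2 RPKM in both lines, 98 in Hs-578T only and 69 in MDA-MB-231 only.

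The 6 highest were MMP24-AS1, ZFAS1, RP4-614O4.11, TUG1, RP11-70C1.3 and FGD5-AS1, with means of 195, 137, 120, 75.4, 64.0 and 62.8 RPKM. ZFAS1 hosts small nucleolar RNAs and starts head to head with ZNFX1, which codes for an RNA helicase-like zinc finger protein. It stood at 74.6 and 75.5 RPKM in MDA-MB-231 parental control, 77.1 and 80.1 in ERK5-ko and 149.7 and 158 in MEK5DD. It rose with MEK5DD there, by 1.03 ± 0.21 (SE) on the log2(RPKM + 0.5) scale used for all fold changes here, with a limma adjusted p = 0.0032. In Hs-578T its libraries spread from 129.9 to 248 RPKM and no difference from the control passed the test, though with MEK5DD replicate 2 left out it was called higher there (0.67). TUG1, a conserved long RNA without a coding partner in the table, held 58.4 and 82.96 RPKM in Hs-578T parental control and 101 and 111 in ERK5-ko. It was called higher (0.60 ± 0.18, limma adjusted p = 0.025), but not when Hs-578T parental control replicate 1 was left out (0.35, limma adjusted p = 0.18), without either ERK5-ko library, or with median-ratio scaling (0.58). RP4-614O4.11, tail to tail with MMP24 and overlapping another gene on its own strand, and RP11-70C1.3, with 2 same-strand overlaps, were called in none of the 4 comparisons with parental controls. FGD5-AS1, next to the start of the nuclear receptor gene NR2C2, held 81.6 and 79.8 RPKM in MDA-MB-231 parental control and 54.5 and 52.5 in ERK5-ko. That difference of -0.59 ± 0.07 passed the test (limma adjusted p = 0.00064) but not the fold limit for lower calls.

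**Figure D1:**
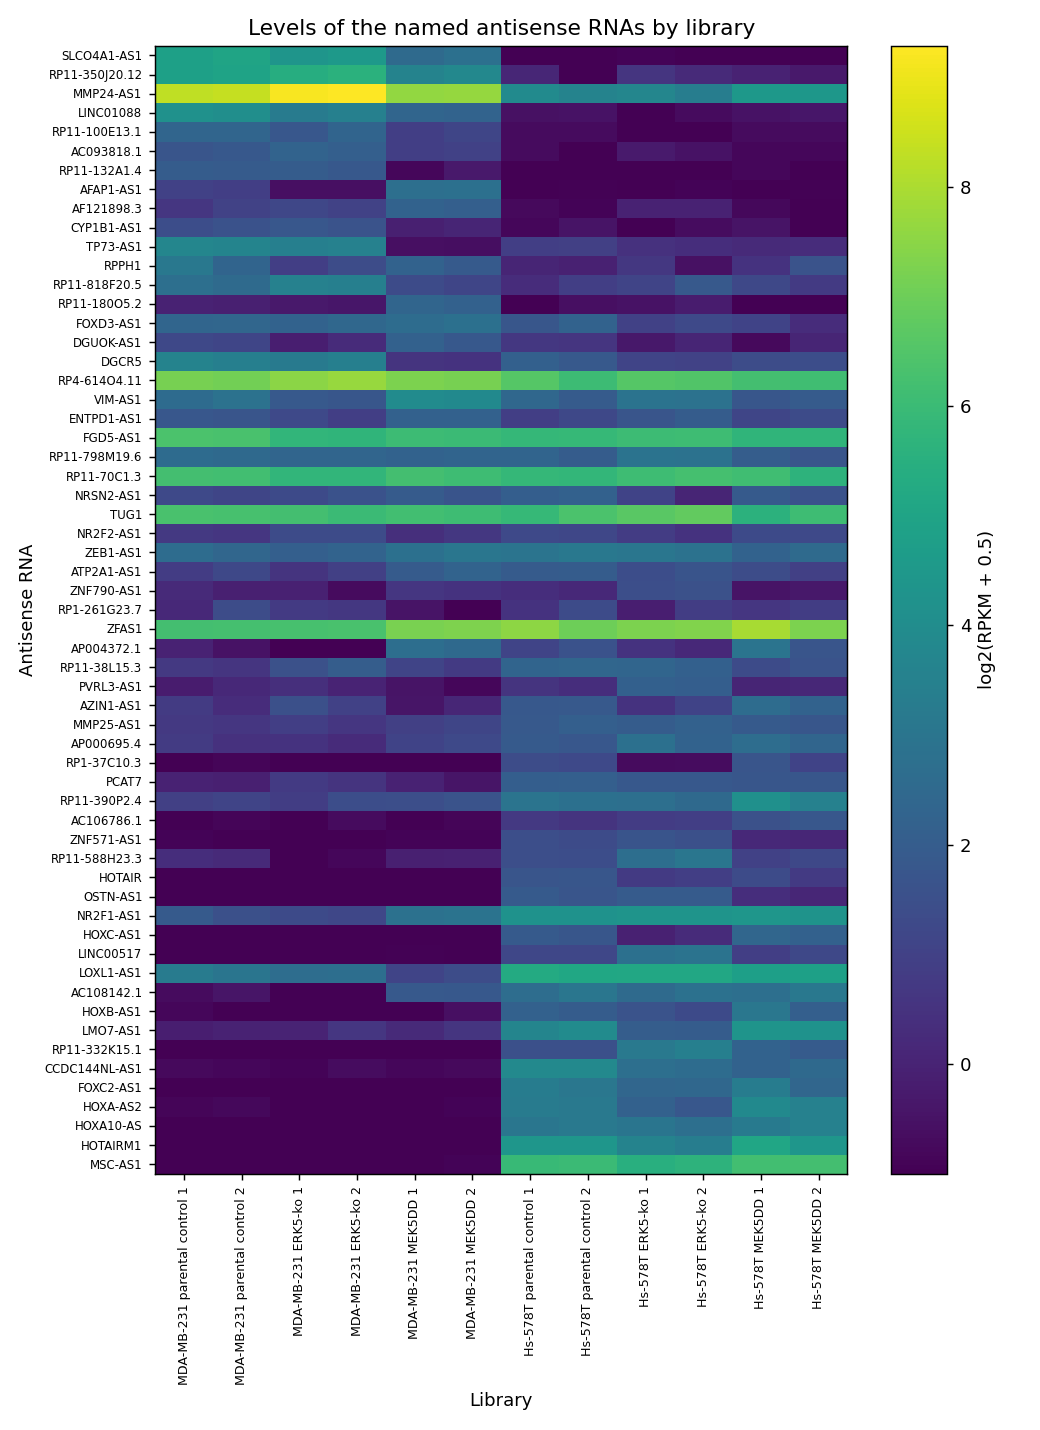
Level of each named antisense RNA (rows, ordered by the difference between the lines) in each of the 12 libraries (columns), as log2(RPKM + 0.5) on the colour scale. MSC-AS1 and HOTAIRM1 (bottom rows) are at the dark end in all 6 MDA-MB-231 libraries and bright in Hs-578T, and SLCO4A1-AS1 (top row) shows the reverse.

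Differences from the parental control were tested with limma on log2(RPKM + 0.5) over 16857 rows of all types at once, with Benjamini-Hochberg adjustment over all of them. A call needed an adjusted p below 0.05, and in addition a fold above 1.5 (higher) or below 0.5 (lower), the asymmetric limits of the study. With 2 libraries a group, the calls rest on the spread pooled over the 6 groups, and that spread was uneven. The chi-square of reads between the 2 libraries, per degree of freedom, was 30.7 in Hs-578T parental control and 42.0 in Hs-578T MEK5DD, against 2.82 to 8.79 in the other groups. The plot of shares called sets the antisense RNAs beside all rows.

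**Figure D2:**
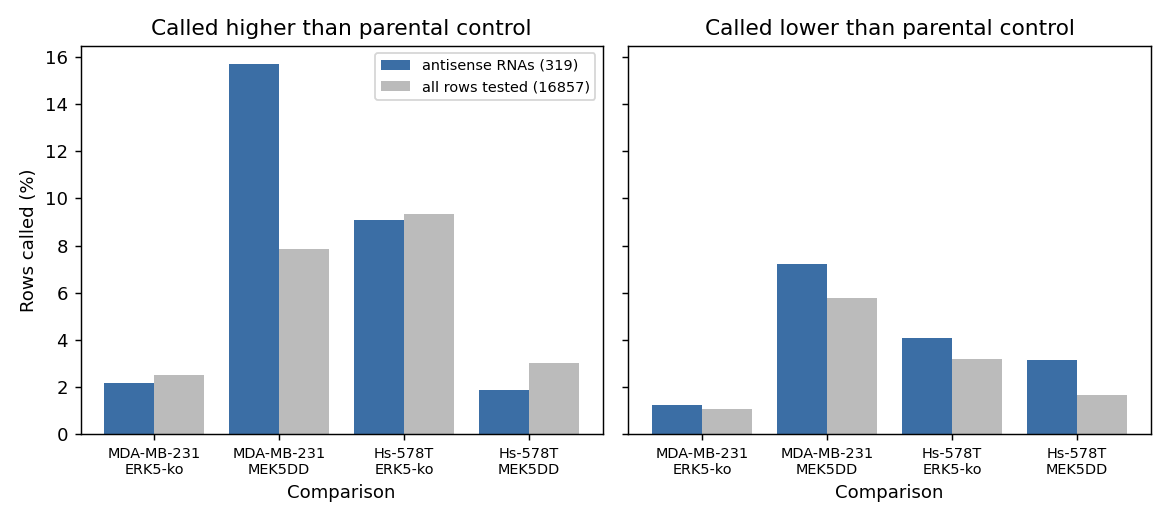
Percent of the 319 antisense RNAs (blue bars) and of all 16857 tested rows (grey bars) called higher (left) or lower (right) than the parental control of the same line, in each of 4 comparisons. The widest gap is for MDA-MB-231 MEK5DD, higher, at 15.7 against 7.87%.

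In MDA-MB-231 labelled ERK5-ko few antisense RNAs moved. Of the 319, 7 were called higher and 4 lower, shares of 2.19 and 1.25% against 2.53 and 1.06% of all tested rows. Their median log2 fold change was -0.05 and that of all rows -0.03. Of the 7, 3 were among 12 RNAs that would not have met the level rule without 1 of the 2 groups, so their calls restate it in part. Without any 1 of the 4 libraries compared the 7 dropped to 3 or 4, and the 4 dropped to 2 without ERK5-ko replicate 1 or parental control replicate 2.

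MMP24-AS1, the most abundant RNA of the set, rose. It stood at 312 and 333 RPKM in the parental control and 586 and 623 in ERK5-ko, without overlap (0.91 ± 0.13, limma adjusted p = 0.0016). MMP24, a membrane-type matrix metalloproteinase gene that lies wholly inside its span, held 1.26 and 1.17 RPKM in the control and 11.004 and 8.48 in ERK5-ko, a rise of 2.57 ± 0.14 (limma adjusted p = 8.6e-06). This was the only pair of 284 tested in which both genes were called in this comparison (2 without any 1 of the Hs-578T ERK5-ko or parental control libraries).

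RP11-38L15.3, tail to tail with the synaptotagmin gene SYT15, held 1.13 and 1.004 RPKM in the control and 2.40 and 3.55 in ERK5-ko (1.13 ± 0.18, limma adjusted p = 0.0032). PCAT7, known as a prostate cancer-associated transcript, rose from 0.488 and 0.434 to 1.18 and 0.966 RPKM (0.71 ± 0.14, limma adjusted p = 0.010). NR2F2-AS1, head to head with the gene of the nuclear receptor COUP-TFII, went from 1.13 and 1.06 to 2.04 and 2.07 RPKM (0.68 ± 0.14, limma adjusted p = 0.011), and met the level rule only with these ERK5-ko libraries. The last 2 calls are fragile. NR2F2-AS1 lost its call without any 1 of the 4 libraries compared (limma adjusted p 0.061 to 0.085), and PCAT7 without any but ERK5-ko replicate 2 (0.056 to 0.084).

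Lower calls fell on 4 RNAs. AFAP1-AS1, an RNA much studied in metastasis that runs tail to tail with the actin-binding protein gene AFAP1, stood at 1.48 and 1.35 RPKM in the control and 0.176 and 0.171 in ERK5-ko (-1.51 ± 0.11, limma adjusted p = 3.2e-05), while AFAP1 differed by -0.03 ± 0.16. RP11-588H23.3, tail to tail with the receptor phosphatase gene PTPRB, fell from 0.760 and 0.676 to 0 and 0.0627 RPKM (limma adjusted p = 0.00068). DGUOK-AS1, opposite the mitochondrial deoxyguanosine kinase gene, fell from 1.85 and 1.71 to 0.421 and 0.685 RPKM (-1.12 ± 0.26, limma adjusted p = 0.018), and lost the call without ERK5-ko replicate 1 or either control (0.087 to 0.13). RPPH1, the RNA part of ribonuclease P, which usually lacks a poly(A) tail, held 8.13 and 4.41 RPKM in the control and 1.39 and 2.14 in ERK5-ko (-1.54 ± 0.44, limma adjusted p = 0.043). Its call was lost without any 1 of the 4 libraries compared (0.067 to 0.28).

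MEK5DD in MDA-MB-231 gave the most calls against a parental control. Of the 319, 50 were called higher and 23 lower, shares of 15.7 and 7.21% against 7.87 and 5.77% of all tested rows. Among the 50, 17 belong to 27 RNAs that would not have met the level rule without 1 of the 2 groups, as do 3 of the 23, so these shares are not independent of the rule. The 347 lincRNAs (long intergenic RNAs) chosen by the same level rule had 14.1% called higher and 6.05% lower, and the 12426 protein-coding rows 7.47 and 6.46%. The median log2 fold change was 0.05 over the antisense RNAs and 0.00 over all rows.

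The 4 largest rises were these. AP004372.1 lies inside NTM, which codes for the adhesion protein neurotrimin, and went from 0.479 and 0.213 RPKM to 6.07 and 5.19 (2.87 ± 0.34, limma adjusted p = 9.4e-05). NTM itself went from 0.767 and 0.900 to 3.08 and 2.89 RPKM (1.39 ± 0.12, limma adjusted p = 1.3e-05). AC108142.1, head to head with the teneurin adhesion gene TENM3, went from 0.116 and 0.241 to 3.14 and 3.07 RPKM (2.42 ± 0.17, limma adjusted p = 2.4e-06). All MEK5DD values of these genes lay above all control values. TENM3 rose as well, from 6.94 and 5.96 to 17.7 and 17.1 RPKM (1.37 ± 0.27, limma adjusted p = 0.0031). RP11-180O5.2, inside HHLA3, held 0.494 and 0.440 RPKM in the control and 4.57 and 4.09 with MEK5DD, and AFAP1-AS1 1.48 and 1.35 against 6.21 and 6.43. Both met the level rule only through MEK5DD. AFAP1-AS1 thus stood at its highest in MEK5DD and at its lowest of the MDA-MB-231 groups in ERK5-ko, and AFAP1, at 109 and 102 RPKM, fell with MEK5DD to 47.4 and 46.1 (-1.16 ± 0.16, limma adjusted p = 0.00031).

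The fall was led by TP73-AS1, tail to tail with the gene of the p53 relative p73. It held 12.6 and 11.8 RPKM in the control, 10.4 and 10.9 in ERK5-ko and 0.164 and 0.160 with MEK5DD (-4.26 ± 0.11, limma adjusted p = 3.4e-09). TP73 differed by -0.14 ± 0.13 in the same comparison and stood near 2 RPKM (2.12 and 2.24 against 1.75 and 2.14). DGCR5, an RNA of the DiGeorge syndrome region without a coding overlap in the table, fell from 11.5 and 10.5 to 0.965 and 0.939 RPKM (-2.98 ± 0.12, limma adjusted p = 8.4e-08). Next came RP11-132A1.4, at 3.45 and 3.33 RPKM in the control and 0.0591 and 0.308 with MEK5DD. SLCO4A1-AS1, inside the organic anion transporter gene SLCO4A1, fell from 28.2 and 31.3 to 5.30 and 6.37 RPKM (-2.26 ± 0.12, limma adjusted p = 4.9e-07). SLCO4A1 fell beside it, from 57.8 and 63.2 to 21.6 and 22.4 RPKM (-1.44 ± 0.14, limma adjusted p = 2.1e-05).

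Antisense RNAs called with MEK5DD in MDA-MB-231 were called both with and without their partner. Of 284 pairs with both genes tested, 28 had both called with MEK5DD in MDA-MB-231, 25 in the same direction and 3 in opposite directions. In 30 pairs only the antisense RNA was called and in 24 only the partner. Of 125 head-to-head pairs 15 were called together and of 55 with the antisense RNA inside 10, all 25 in the same direction, while of 87 tail-to-tail pairs 3 were called together, all in opposite directions. The split by arrangement was made after the values were seen, the difference between arrangements was not tested, and some pairs share a member. Across pairs, Pearson's r of the 2 log2 fold changes was 0.59 head to head (125 pairs), 0.66 for antisense RNAs inside (55) and -0.02 tail to tail (87), a description over pairs that share libraries. The head-to-head count lay between 12 and 17 in the alternatives run for it, and the count with the antisense RNA inside fell to 6 without MEK5DD replicate 2.

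**Figure D3:**
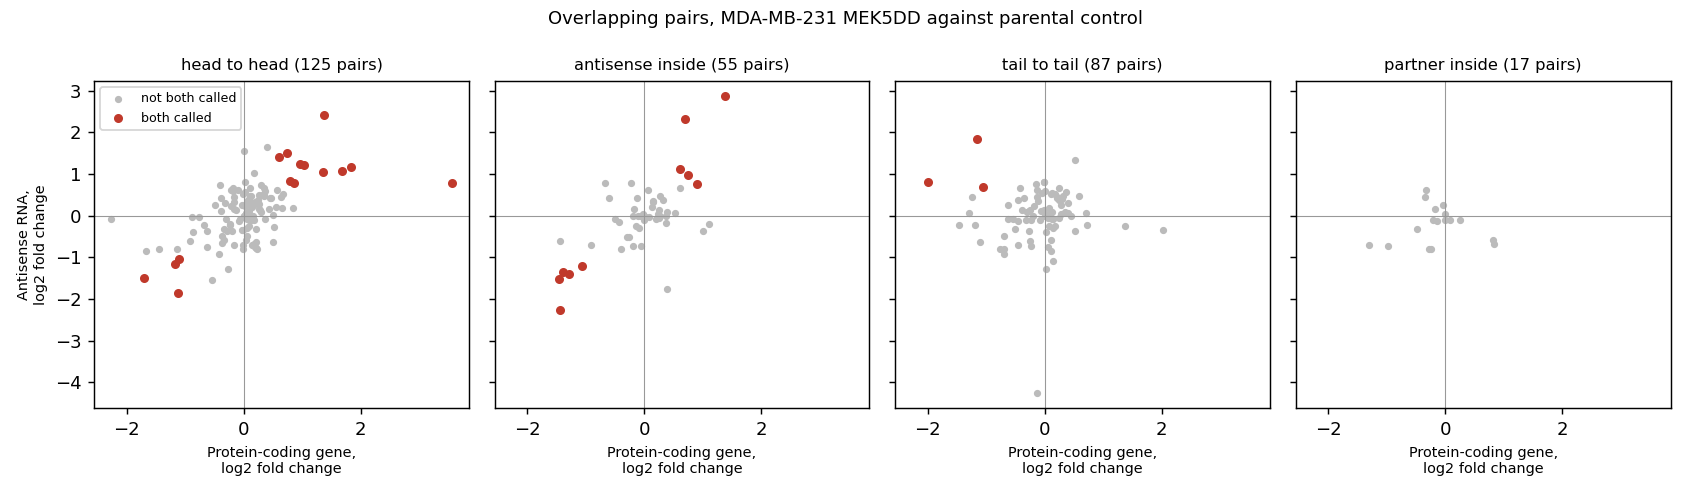
Each point is a pair of an antisense RNA and an overlapping protein-coding gene, in 4 panels by arrangement. The log2 fold change of MEK5DD over parental control in MDA-MB-231 is on the x axis for the protein-coding gene and on the y axis for the antisense RNA, and pairs with both genes called are red. Red points lie in the lower left and upper right corners in the first 2 panels (15 and 10) and in the upper left corner in the tail-to-tail panel (3).

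The 3 opposite pairs, named after their values were seen, were CTB-55O6.12 with the adhesion receptor gene ADGRL1, AFAP1-AS1 with AFAP1, and SNHG7, a small nucleolar RNA host, with FAM69B. SNHG7 held 14.7 and 16.3 RPKM in the control and 25.3 and 29.3 with MEK5DD (0.80 ± 0.15, limma adjusted p = 0.0019), and FAM69B fell from 1.47 and 1.79 to 0.0193 and 0.0502 RPKM. Among the pairs that moved together were those of NR2F1-AS1 with NR2F1, the gene of the nuclear receptor COUP-TFI. NR2F1-AS1 went from 3.29 and 2.34 to 6.68 and 7.02 RPKM (1.16 ± 0.13) and NR2F1 from 1.40 and 1.65 to 6.51 and 6.998 RPKM (1.84 ± 0.14). CYP1B1-AS1 fell from 2.18 and 2.49 to 0.448 and 0.555 RPKM (-1.50 ± 0.20) beside CYP1B1, a xenobiotic- and oestrogen-metabolising cytochrome (-1.70 ± 0.16). RP11-818F20.5 fell by 1.41 on the log2 scale inside TXNRD1, the thioredoxin reductase gene, which fell by 1.28, and the antisense RNA inside CNIH3, a gene of an AMPA receptor partner, fell by 1.34 beside a fall of CNIH3 by 1.39. RP1-261G23.7, inside VEGFA, the gene of a vessel growth factor, held 0.649 and 2.12 RPKM in the control and 0.222 and 0 with MEK5DD, and its call was lost without control replicate 2 or MEK5DD replicate 2 (limma adjusted p 0.16 and 0.12). It met the level rule only with the help of the control. VEGFA itself fell by 1.45 on the log2 scale, and the antisense row stood at 0.991% of its RPKM. Pairs chosen after their values were seen were HHIP-AS1 with HHIP, an inhibitor of hedgehog signalling (-1.16 ± 0.14 and -1.17 ± 0.14), and HAS2-AS1 with the hyaluronan synthase gene HAS2 (0.79 ± 0.23 and 3.56 ± 0.12).

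Of 7 members at genes of epithelial-to-mesenchymal transition, extracellular matrix or ERK5 signalling, 1 was called higher and 1 lower with MEK5DD in MDA-MB-231, against 7.87 and 5.77% of all rows. The 1 higher was VIM-AS1. It stood at 5.47 and 6.87 RPKM in the MDA-MB-231 parental control, 3.21 and 2.83 in ERK5-ko and 15.3 and 14.4 with MEK5DD, and the 3 groups did not overlap. The rise was 1.21 ± 0.17 (limma adjusted p = 0.00029), and the difference in ERK5-ko, -0.92 ± 0.17 (limma adjusted p = 0.0060), missed the fold limit. VIM rose with MEK5DD from 1610 and 1751 to 3418 and 3492 RPKM (1.04 ± 0.11, limma adjusted p = 5.1e-05) and differed by -0.05 ± 0.11 in ERK5-ko. VIM-AS1 ran at 0.219% of the RPKM of VIM, inside the range of the antisense rows covered by coding exons. The part of stray VIM reads in the row was not tested.

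In Hs-578T the VIM-AS1 groups stood in another order. It held 4.91 and 3.33 RPKM in the parental control, 7.11 and 6.83 in ERK5-ko and 2.88 and 3.36 with MEK5DD. VIM held 3608 and 3433 RPKM in the Hs-578T control, 3449 and 3352 in ERK5-ko and 3469 and 4067 with MEK5DD. VIM-AS1 was called higher in ERK5-ko there (0.71 ± 0.17, limma adjusted p = 0.0081), a call lost without parental control replicate 2 (0.46) or ERK5-ko replicate 1 (0.69, limma adjusted p = 0.050). VIM differed by -0.05 ± 0.11 in that comparison. The ERK5-ko effect on VIM-AS1 differed between the lines by 1.63 ± 0.24 (Hs-578T minus MDA-MB-231, limma adjusted p = 0.00061), and the MEK5DD effect by -1.54 ± 0.24 (limma adjusted p = 0.00077).

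LOXL1-AS1 was the 1 lower. It held 9.10 and 7.40 RPKM in MDA-MB-231 parental control, 5.90 and 6.06 in ERK5-ko and 1.68 and 2.11 with MEK5DD (-1.87 ± 0.12, limma adjusted p = 1.5e-06). LOXL1 stood low in this line, at 5.67 and 6.56 RPKM in the control and 2.41 and 2.64 with MEK5DD (-1.13 ± 0.13, limma adjusted p = 7.2e-05). In Hs-578T both were higher, and the calls parted in ERK5-ko. LOXL1 fell from 259.8 and 281 RPKM in the control to 72.4 and 55.3 in ERK5-ko (-2.09 ± 0.13, limma adjusted p = 2.8e-06), while LOXL1-AS1 did not pass the test and held 38.6 and 34.2 against 35.5 and 35.03 RPKM (-0.04 ± 0.12, limma adjusted p = 0.82).

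MMP24-AS1 and MMP24 stood on opposite sides of the control in the 2 engineered MDA-MB-231 lines. With MEK5DD, MMP24-AS1 stood at 197 and 201 RPKM against 312 and 333 (-0.70 ± 0.13, limma adjusted p = 0.0018, within the fold limit), and MMP24 at 0.179 and 0.213 against 1.26 and 1.17 RPKM (-1.30 ± 0.14, called lower). Both therefore ranked ERK5-ko, parental control, MEK5DD from high to low without overlap, and the 2 comparisons share the control libraries. In Hs-578T MMP24-AS1 held 14.5 and 11.5 RPKM in the control and 21.6 and 21.5 with MEK5DD, where it was called higher (0.72 ± 0.13, limma adjusted p = 0.0040), though not without parental control replicate 2 (0.56).

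The other 4 were called in none of the comparisons with parental controls. ZEB1-AS1, head to head with the gene of the transcription factor ZEB1, ranged from 3.796 to 8.07 RPKM over the 12 libraries. AC093818.1, opposite the integrin gene ITGA6 and the pyruvate dehydrogenase kinase gene PDK1, held 2.77 and 3.02 RPKM in MDA-MB-231 parental control and 1.39 and 1.49 with MEK5DD (-0.80 ± 0.14, within the fold limit), beside a fall of PDK1 by 1.44 on the log2 scale. ITGA6 differed by -0.77 ± 0.14 in that comparison (limma adjusted p = 0.0018, within the fold limit). In Hs-578T, where it held at most 0.344 RPKM, AC093818.1 was called higher in ERK5-ko without control replicate 1 (0.63) or ERK5-ko replicate 2 (0.61). MMP25-AS1, across the metalloproteinase gene MMP25, ranged from 1.04 to 4.02 RPKM, and RP4-614O4.11 from 66.1 to 206.

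**Figure D4:**
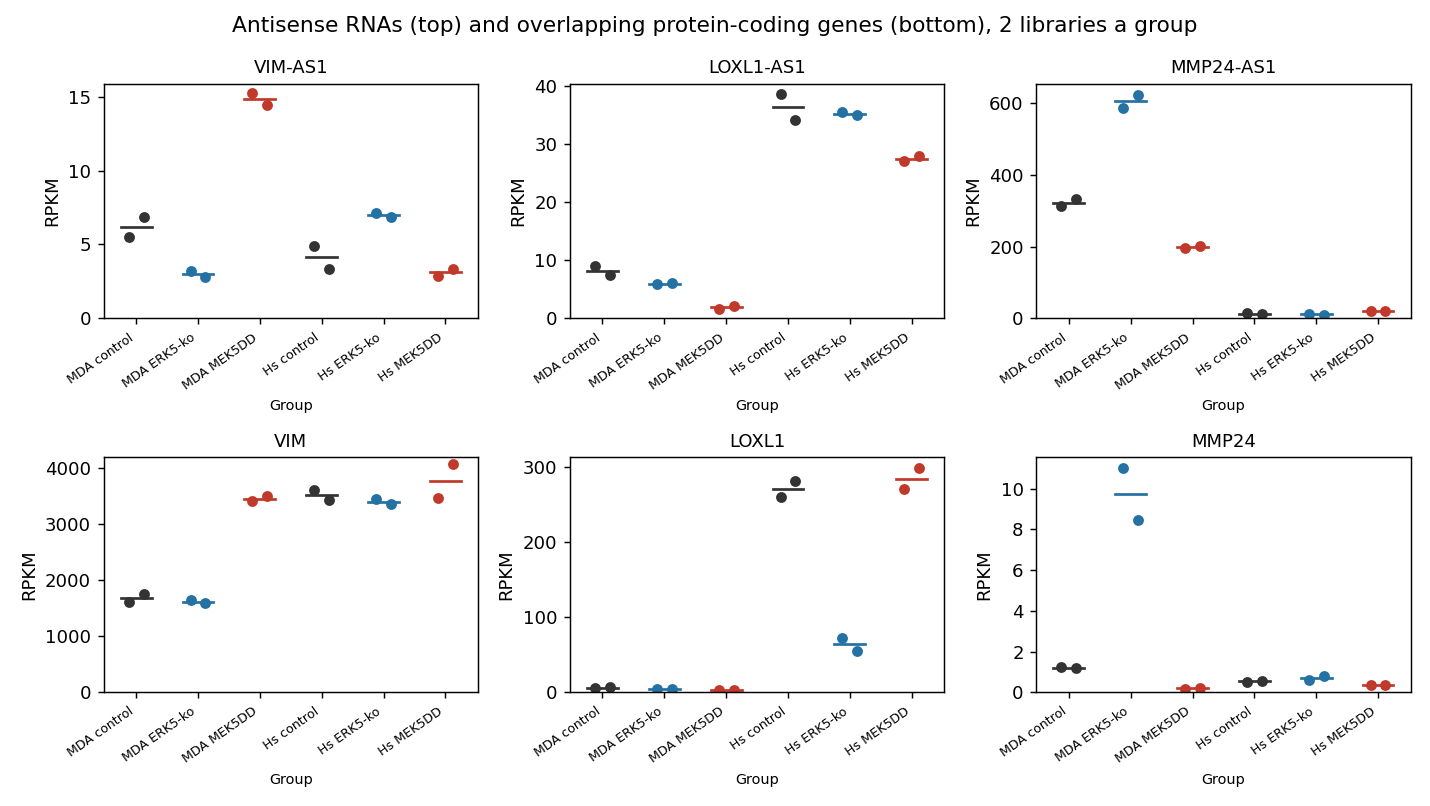
RPKM of 3 antisense RNAs (top) and of the protein-coding genes they overlap (bottom) in the 6 groups, with a point for each library and a line at the mean of 2. VIM-AS1 is highest in MDA-MB-231 MEK5DD (15.3 and 14.4 RPKM), LOXL1 drops in Hs-578T ERK5-ko (72.4 and 55.3) where LOXL1-AS1 does not, and MMP24-AS1 is at least 197 RPKM in every MDA-MB-231 library and at most 21.6 in Hs-578T.

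In Hs-578T labelled ERK5-ko 29 antisense RNAs were called higher and 13 lower, 9.09 and 4.08% against 9.33 and 3.19% of all tested rows. Among the 29, 8 would not have met the level rule without 1 of the 2 groups, as would 1 of the 13. The median log2 fold change was -0.07 against 0.01 over all rows. The 347 lincRNAs of the same level rule had 20.5% called higher, though that difference from the antisense RNAs was not tested. Leaving out ERK5-ko replicate 2 lowered the 29 to 19 (20 without parental control replicate 2), and leaving out parental control replicate 2 raised the 13 to 20.

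Among the largest rises were RNAs under 3 RPKM in the control. RP11-332K15.1, inside the cilia-associated gene IQUB, rose from 2.34 and 2.37 RPKM to 8.42 and 10.3 (1.78 ± 0.13, limma adjusted p = 9.6e-06), and no read of it was listed in any MDA-MB-231 library. PVRL3-AS1, at the start of the nectin adhesion gene PVRL3, went from 0.943 and 0.780 to 3.97 and 3.71 RPKM, LINC00517, inside TTC6, from 1.80 and 1.76 to 6.36 and 6.99, and both met the level rule only through ERK5-ko. RP11-588H23.3, which fell in MDA-MB-231 ERK5-ko, rose here from 2.26 and 2.23 to 6.08 and 7.78 RPKM (1.43 ± 0.14, limma adjusted p = 6.4e-05). The effects in the 2 lines differed by 2.63 ± 0.20 (limma adjusted p = 2.1e-05), and PTPRB was called in neither.

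Among those that fell, RP1-37C10.3 went from 2.14 and 1.90 RPKM to 0.120 and 0.130 (limma adjusted p = 3.5e-05), and met the level rule only with the help of the control. It starts head to head with MFAP2, the gene of a microfibril protein of the matrix, which held 360.0 and 326 RPKM in the control and 201 and 171 in ERK5-ko (-0.88 ± 0.13, within the fold limit), and runs at 0.471% of its level. LMO7-AS1, between the ubiquitin hydrolase gene UCHL3 and the junction protein gene LMO7, fell from 12.5 and 15.0 to 3.62 and 3.43 RPKM (-1.82 ± 0.19, limma adjusted p = 8.4e-05), and neither partner was called. NRSN2-AS1 fell from 3.66 and 4.10 to 1.57 and 0.548 RPKM (-1.57 ± 0.27, limma adjusted p = 0.0014), with its head-to-head partner NRSN2 at -0.22 and SOX12, a transcription factor gene inside its span, at -0.54 on the log2 scale.

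Only 4 of 284 pairs had both genes called in this comparison, 2 in the same and 2 in opposite directions. RP11-798M19.6 rose from 4.41 and 3.49 to 7.03 and 6.86 RPKM (0.75 ± 0.13) and SAP30, a subunit gene of a histone deacetylase complex, from 15.9 and 12.6 to 24.6 and 23.9 RPKM (0.75 ± 0.11). AF121898.3 and CNBD1 rose too, both under 1 RPKM in the antisense row. ENTPD1-AS1 rose from 1.39 and 1.88 to 2.80 and 3.48 RPKM (0.77 ± 0.16) while ENTPD1, the gene of the ectonucleotidase CD39, fell from 1.34 and 1.28 to 0.311 and 0.353 RPKM (-1.12 ± 0.11). AZIN1-AS1 fell from 3.01 and 3.13 to 0.926 and 1.59 RPKM (-1.05 ± 0.27) and AZIN1, an antizyme inhibitor gene of polyamine metabolism, rose by 0.59 ± 0.09. The same-direction count became 6 without ERK5-ko replicate 1, 4 without parental control replicate 1 and 1 without ERK5-ko replicate 2. Both opposite calls were lost when 1 ERK5-ko library was left out, replicate 2 for ENTPD1-AS1 (limma adjusted p = 0.053) and replicate 1 for AZIN1-AS1 (0.11).

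MEK5DD in Hs-578T gave the fewest calls beside MDA-MB-231 ERK5-ko. Of the 319, 6 were called higher and 10 lower, 1.88 and 3.13% against 3.03 and 1.67% of all tested rows. Of these RNAs 1 called higher and 1 called lower would not have met the level rule without 1 of the 2 groups. In no pair were both genes called, while in 10 pairs only the antisense RNA was called and in 9 only the partner. The 6 moved to 20 without MEK5DD replicate 2 and to 1 without parental control replicate 2, so 1 library decides this count. Median-ratio scaling gave 7 higher and 7 lower. MAP2K5 stood at 21.3 and 23.8 RPKM in these MEK5DD libraries against 14.6 and 16.9 in the control, and the part of that level in the counts was not tested.

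CCDC144NL-AS1, an RNA between CCDC144NL and the deubiquitinase gene USP22, fell from 13.8 and 13.6 RPKM in the control to 4.24 and 5.28 with MEK5DD (-1.44 ± 0.14, limma adjusted p = 0.00012). It also fell in ERK5-ko, to 6.31 and 5.65 RPKM (-1.14 ± 0.14, limma adjusted p = 0.00018), so that both engineered lines lay under their shared control. OSTN-AS1, across the gene of the secreted muscle and bone factor osteocrin, fell from 3.27 and 2.75 to 0.776 and 0.575 RPKM with MEK5DD (-1.58 ± 0.13, limma adjusted p = 5.5e-05), as did ZNF571-AS1, opposite a zinc finger gene, from 2.28 and 2.06 to 0.643 and 0.589 (-1.26 ± 0.12). FOXD3-AS1, at the start of the neural crest transcription factor gene FOXD3, fell from 2.91 and 4.20 to 1.60 and 0.749 RPKM (-1.31 ± 0.23, limma adjusted p = 0.0040), a fold within the limit (-0.93) without MEK5DD replicate 2.

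Rises were smaller. AC106786.1, head to head with PRDM6, went from 1.13 and 0.949 to 2.39 and 2.95 RPKM and met the level rule only through MEK5DD. RP11-390P2.4, at the start of NHSL1, held 7.18 and 6.54 RPKM in the control and 17.4 and 11.1 with MEK5DD (0.97 ± 0.22, limma adjusted p = 0.013), and lost its call without MEK5DD replicate 1 or control replicate 2 (0.069 and 0.060). AP000695.4, tail to tail with the claudin gene CLDN14, went from 3.28 and 2.98 to 5.96 and 4.66 RPKM (0.67 ± 0.20, limma adjusted p = 0.041), a call lost without any 1 of 9 libraries, Hs-578T MEK5DD replicate 1 among them (0.18).

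At HOX clusters, whose homeobox genes set positional identity, 6 members were named by symbol (starting HOX, or HOTAIR or HOTAIRM1). All 6 were called higher in the Hs-578T than in the MDA-MB-231 parental control, against 16.3% of all tested rows. HAGLR, head to head with HOXD1 and chosen after its values were seen, went the other way. It had 447 and 546 reads in MDA-MB-231 parental control and 77 and 80 in Hs-578T parental control. HOTAIRM1, HOXA10-AS, HOXC-AS1 and HOTAIR had no read in any MDA-MB-231 library, and HOXA-AS2 and HOXB-AS1 at most 0.0793 and 0.176 RPKM. In Hs-578T parental control HOTAIRM1 held 20.5 and 20.4 RPKM, HOXA-AS2 9.17 and 8.41, HOXA10-AS 7.81 and 8.50, HOXB-AS1 4.06 and 3.53, HOXC-AS1 3.25 and 2.89 and HOTAIR 2.80 and 2.89. Against the level of 3 reads in each MDA-MB-231 parental library, HOTAIRM1 was at least 110.5-fold, HOXA10-AS at least 64.6-fold, HOTAIR at least 24.8-fold and HOXC-AS1 at least 11.2-fold higher. The 6 met the level rule through Hs-578T alone, so their higher level there is a description of what the rule selected. The 12 coding partners that were tested with the 6 were also called higher in Hs-578T, among them HOXA3, HOXA9 and HOXC11. They were chosen by overlap with RNAs that the rule selected, so their calls are not independent of it. HOXD1, the partner of HAGLR, was called lower in Hs-578T (-1.62 ± 0.11).

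Within Hs-578T the median log2 fold change of the 6 HOX RNAs in ERK5-ko was -0.90. HOXC-AS1 fell to 0.457 and 0.693 RPKM (-1.74 ± 0.14, limma adjusted p = 1.3e-05), and HOXA-AS2 to 4.08 and 3.004 (-1.21 ± 0.16, limma adjusted p = 0.00029). These were 2 lower and 0 higher of 6, against 3.19% of all rows called lower. HOTAIRM1, at 11.7 and 9.87 RPKM, and HOTAIR, at 1.18 and 1.40, passed the test (limma adjusted p = 0.0046 and 0.0029) but not the fold limit (-0.90 ± 0.19 and -0.90 ± 0.17). HOXA10-AS at -0.22 ± 0.13 and HOXB-AS1 at -0.64 ± 0.28 did not pass. The genes HOXC6 and HOXC9 across HOXC-AS1 differed by 0.23 and 0.25 on the log2 scale in that comparison and were not called. HOTAIRM1 passed the fold limit without ERK5-ko replicate 1 (-1.02). With MEK5DD 0 of the 6 were called in Hs-578T by limma on log2(RPKM + 0.5) or by limma voom on reads, while 3 had an unadjusted p under 0.05. Without MEK5DD replicate 2 HOTAIRM1, HOXA-AS2 and HOXB-AS1 were called higher with MEK5DD (0.71, 0.65 and 0.99), and without replicate 1 HOTAIR was called lower (-1.003).

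The comparison of the parental lines is a description, because the level rule used these levels. Of the 319, 98 reached 2 RPKM in Hs-578T only and 69 in MDA-MB-231 only. With an adjusted p below 0.05 and at least a 2-fold difference required, 118 were higher in Hs-578T and 64 lower, 37.0 and 20.1% against 16.3 and 19.3% of all tested rows. The lincRNAs of the same level rule stood at 40.9 and 23.1%, and the protein-coding rows at 15.0 and 21.4%. The median log2 difference was 0.47 over the antisense RNAs and -0.13 over all rows. Median-ratio scaling shifted the median of this comparison by -0.19 and gave 129 higher and 60 lower. Of the 118, 83 were among the 98 that reached 2 RPKM in Hs-578T only, and of the 64, 47 were among the 69 of MDA-MB-231. The 152 that reached it in both lines had 35 called higher in Hs-578T and 17 lower.

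MSC-AS1 was the extreme, with no read in the MDA-MB-231 parental libraries and 59.7 and 63.6 RPKM in Hs-578T, at least 569.5-fold. MSC, the gene of the bHLH repressor musculin inside its span, was likewise listed at 0 in all MDA-MB-231 libraries and held 75.02 and 68.4 RPKM. FOXC2-AS1 was at 0 and at 9.39 and 7.92 RPKM (at least 23.9-fold), beside FOXC2, a mesenchymal transcription factor gene, at 21.7 and 21.5 RPKM in Hs-578T. CCDC144NL-AS1 held 0.105 and 0.0624 RPKM in MDA-MB-231 and 13.8 and 13.6 in Hs-578T (4.61 ± 0.14, limma adjusted p = 4.7e-10).

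In the other direction SLCO4A1-AS1 had no read in Hs-578T parental control and 28.2 and 31.3 RPKM in MDA-MB-231, at least 206-fold, and SLCO4A1 stood at 0.901 and 1.10 against 57.8 and 63.2 RPKM. RP11-350J20.12, inside the receptor-related gene LRP11, held 28.5 and 30.5 RPKM in MDA-MB-231 and 0.565 and 0 in Hs-578T. LINC01088, tail to tail with the acetyltransferase gene NAA11, held 17.9 and 16.4 against 0.184 and 0.203 RPKM (-4.67 ± 0.13, limma adjusted p = 3.6e-10). MMP24-AS1 held 312 and 333 against 14.5 and 11.5 RPKM (-4.59 ± 0.13, limma adjusted p = 3.1e-10), while MMP24 differed by only -0.74 ± 0.14.

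Pairs called between the lines were also counted by arrangement, and the difference between arrangements was not tested. Of 284 pairs, 76 had both genes called between the lines, 66 in the same and 10 in opposite directions. Head to head the split was 35 to 1, with the antisense RNA inside 18 to 1, with the gene inside 3 to 1 and tail to tail 10 to 7. Pearson's r across pairs was 0.60 head to head (125 pairs) and 0.20 tail to tail (87). Not every head-to-head pair differed in both genes. ZBED5-AS1, named after its values were seen, held 44.1 and 44.2 RPKM in MDA-MB-231 and 11.03 and 9.78 in Hs-578T (-2.04 ± 0.10, limma adjusted p = 3.2e-08), and ZBED5, whose window shares 263 bases with it, 15.2 and 14.4 against 18.9 and 18.6 RPKM (0.33 ± 0.08). RPPH1, which starts within 104 shared bases of the DNA repair gene PARP2, was also lower in Hs-578T (-2.70 ± 0.44, limma adjusted p = 0.00024), with PARP2 at -0.74.

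**Figure D5:**
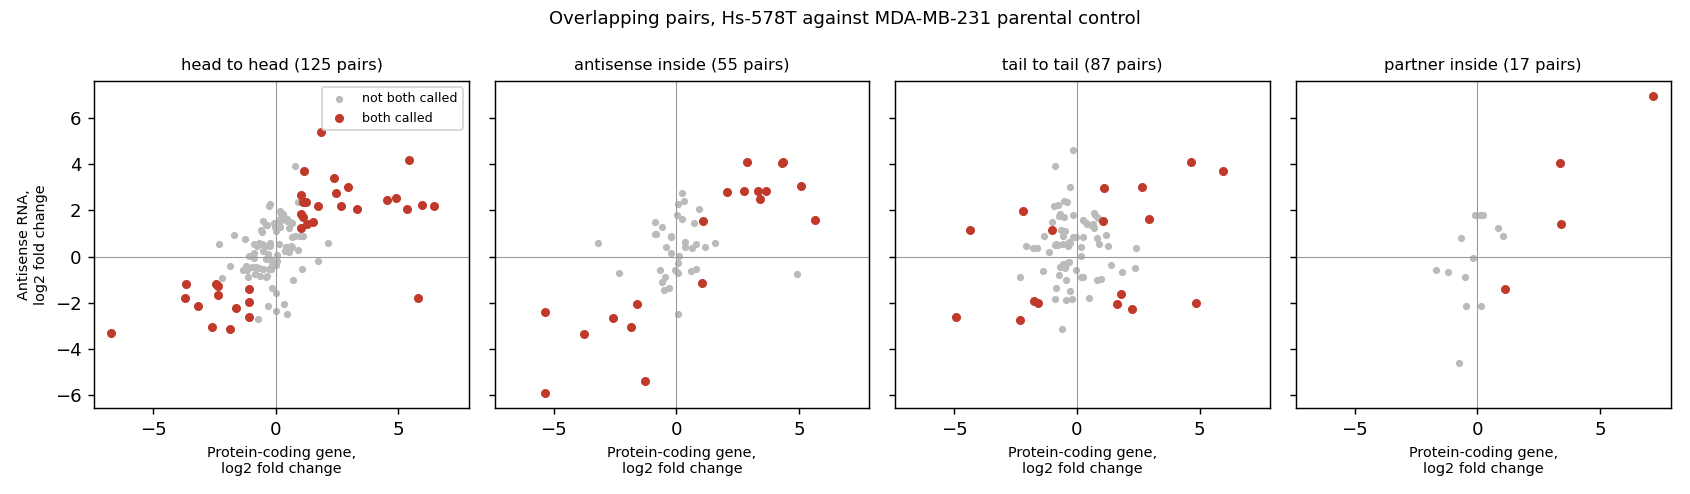
Pairs of an antisense RNA and an overlapping protein-coding gene in 4 panels by arrangement, with the log2 fold change of Hs-578T over MDA-MB-231 parental control for the coding gene on the x axis and for the antisense RNA on the y axis. Pairs with both genes called are red, and in the head-to-head panel 35 of 36 lie in the lower left or upper right corner, against 10 of 17 in the tail-to-tail panel.

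The effect of each construct was also compared between the lines. By the test of the difference itself (limma adjusted p under 0.05), the ERK5-ko effect was higher in Hs-578T for 42 and lower for 60 of the 319, 13.2 and 18.8% against 18.9 and 15.7% of all tested rows. The MEK5DD effect was higher in Hs-578T for 40 and lower for 87, 12.5 and 27.3% against 15.9 and 19.5%. For MEK5DD, the lincRNAs of the same level rule stood at 12.4 and 29.4%, and the protein-coding rows at 17.6 and 20.6%. Without 1 compared group, 27 of the 319 in MDA-MB-231 MEK5DD and 21 in Hs-578T MEK5DD would not have met the level rule. For ERK5-ko these were 12 and 30, so the counts are not independent of the rule. Left-out libraries moved these counts, the 60 to 34 without Hs-578T ERK5-ko replicate 2, and the 40 to 24 without MDA-MB-231 MEK5DD replicate 1 or 26 without MDA-MB-231 parental control replicate 1. Among the 87 were VIM-AS1, ATP2A1-AS1 inside the calcium pump gene ATP2A1, and AC108142.1. ATP2A1-AS1 held 1.27 and 1.86 RPKM in MDA-MB-231 parental control and 3.38 and 4.39 with MEK5DD, and 3.39 and 3.47 against 2.096 and 1.44 in Hs-578T. ZNF790-AS1, opposite a zinc finger gene, showed the same kind of split for ERK5-ko, at 0.662 and 0.428 against 0.462 and 0.119 RPKM in MDA-MB-231 and 0.781 and 0.646 against 2.27 and 2.46 in Hs-578T.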

How the data were processed

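RNA was sequenced in 12 TruSeq Stranded mRNA libraries. The authors deposited RPKM values per gene, with no reads or totals in the table used here. Library totals and reads were recovered from the steps between low RPKM values, with exon lengths of GENCODE 29 (27628 row IDs matched) setting the scale and a whole-number length fitted to the other rows. All 32152 rows (100.0%) then gave whole reads within 0.01, and 0 of 500 rows did with totals set 1% off. The recovered totals were 20248162 to 27791195 reads. The submitters' processing notes name bcl2fastq, Trimmomatic 0.32, TopHat2 2.1.1, R 3.3.1 and DESeq2 1.12.4, and the build GRCh38. The counting tool, its strand setting and the annotation are not given in the sources used here. Libraries were grouped by cell line and label, 2 a group. The study itself analysed protein-coding RNAs only, and its fold limits and adjusted p limit were used here.

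The 16857 rows that reached 0.5 RPKM in 2 or more libraries were fitted with limma 3.58.1 (R 4.3.3) on log2(RPKM + 0.5), with 6 group means, 6 residual degrees of freedom and a variance trend, and Benjamini-Hochberg adjustment over all rows, so every p-value covers the spread between libraries. The MDA-MB-231 ERK5-ko comparison was tested on simulated data of 16608 rows, where 92% of 200 changed rows and 8 of 16408 unchanged rows were called. That simulation gave all libraries the same spread and changed only rows with ample reads. It therefore does not measure the error or power for the uneven spread and the low RNAs here. Pairs needed at least 1 shared base between spans on opposite strands. A level at or under 3 reads a library counted as the floor. Promoters, sequences and motifs came from RefSeq GRCh38.p14. Tables were handled with Python 3.11.15, pandas 2.3.3, numpy 2.4.6 and scipy 1.17.1, and plots made with matplotlib 3.10.9. The antisense RNAs and gene lists were chosen with earlier results of these data known. Named RNAs were the 6 with the highest mean and the 4 highest and 4 lowest called fold changes of each comparison. Up to 8 pairs with both genes called were named in each comparison with parental controls. Members at HOX clusters were named by symbol (starting HOX, or HOTAIR, HOTAIRM1 or HOTTIP). Also named were members at genes of epithelial-to-mesenchymal transition, matrix or ERK5 signalling, and those next to the level limit. Others are marked as chosen after their values were seen. Alternatives were pseudocounts of 0.1 and 1, no filter on low values, median-ratio scaling, limma voom on the recovered reads, a replicate block, members by mean RPKM, a symmetric fold limit and leaving out each library.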

Additional observations from a re-analysis of the deposited data

Results flagged for a closer look

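Named antisense RNAs stood out where the test of the difference between the lines passed, given as the log2 fold change in Hs-578T minus that in MDA-MB-231. For ERK5-ko 10 did so. The effect was higher in Hs-578T for RP11-588H23.3 by 2.63 (-1.20 in MDA-MB-231, 1.43 in Hs-578T), RP11-332K15.1 by 1.78 (0.00 in MDA-MB-231, 1.78 in Hs-578T) and ZNF790-AS1 by 1.67 (-0.43 in MDA-MB-231, 1.24 in Hs-578T). It was also higher there for LINC00517 by 1.65 (0.00 in MDA-MB-231, 1.65 in Hs-578T) and VIM-AS1 by 1.63 (-0.92 in MDA-MB-231, 0.71 in Hs-578T). A lower effect in Hs-578T was found for MMP24-AS1 by -1.12 (0.91 in MDA-MB-231, -0.21 in Hs-578T), AZIN1-AS1 by -1.74 (0.69 in MDA-MB-231, -1.05 in Hs-578T) and NRSN2-AS1 by -1.81 (0.24 in MDA-MB-231, -1.57 in Hs-578T). Lower effects there were also those of RP1-37C10.3 by -1.93 (-0.08 in MDA-MB-231, -2.01 in Hs-578T) and LMO7-AS1 by -2.22 (0.40 in MDA-MB-231, -1.82 in Hs-578T). Limma adjusted p ran from 2.1e-05 (RP11-588H23.3) to 0.0066 (AZIN1-AS1).

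For MEK5DD 13 did so. The effect was higher in Hs-578T for TP73-AS1 by 3.59 (-4.26 in MDA-MB-231, -0.67 in Hs-578T) and RP11-132A1.4 by 2.63 (-2.53 in MDA-MB-231, 0.09 in Hs-578T). It was also higher there for DGCR5 by 2.37 (-2.98 in MDA-MB-231, -0.61 in Hs-578T), SLCO4A1-AS1 by 2.26 (-2.26 in MDA-MB-231, 0.00 in Hs-578T) and LOXL1-AS1 by 1.47 (-1.87 in MDA-MB-231, -0.40 in Hs-578T). Further higher effects were those of MMP24-AS1 by 1.41 (-0.70 in MDA-MB-231, 0.72 in Hs-578T) and AC093818.1 by 0.83 (-0.80 in MDA-MB-231, 0.03 in Hs-578T). A lower effect in Hs-578T was found for ZEB1-AS1 by -1.06 (0.42 in MDA-MB-231, -0.64 in Hs-578T), VIM-AS1 by -1.54 (1.21 in MDA-MB-231, -0.33 in Hs-578T) and AP004372.1 by -1.88 (2.87 in MDA-MB-231, 0.997 in Hs-578T). Lower effects there were also those of ATP2A1-AS1 by -1.90 (1.09 in MDA-MB-231, -0.81 in Hs-578T), AC108142.1 by -2.33 (2.42 in MDA-MB-231, 0.09 in Hs-578T) and RP11-180O5.2 by -2.53 (2.32 in MDA-MB-231, -0.21 in Hs-578T). Limma adjusted p ran from 2.9e-07 (TP73-AS1) to 0.012 (AP004372.1). RP11-332K15.1 and LINC00517 for ERK5-ko and SLCO4A1-AS1 for MEK5DD, each at or near 0 in 1 line, missed the limit with limma voom (adjusted p 0.0875, 0.14 and 0.0521). Other RNAs were also at 3 reads or fewer a library in both compared groups of 1 line. These were RP1-37C10.3 for ERK5-ko (MDA-MB-231) and RP11-132A1.4, RP11-180O5.2 and AC093818.1 for MEK5DD (Hs-578T). A fall could not be measured at that level, so all of these differences rest on the effect in the other line. RP11-180O5.2 met the level rule only through MDA-MB-231 MEK5DD, LINC00517 and ZNF790-AS1 only through Hs-578T ERK5-ko, and RP1-37C10.3 only with the help of the Hs-578T control, so these differences use the values that admitted them. Passage differs with the label in both lines, and its part was not tested.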

How the results depend on the processing

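Counts of calls given here are compared with those of the report, and the cause of a change was not tested unless the setting itself reduces the rows or libraries. With a pseudocount of 0.1, antisense RNAs called lower numbered 9 in MDA-MB-231 ERK5-ko and 28 in Hs-578T ERK5-ko, pairs called in the same direction 2 and 4 in these comparisons, opposite pairs 4 in Hs-578T ERK5-ko and opposite head-to-head pairs between the lines 2. With a pseudocount of 1, lower calls numbered 2 in MDA-MB-231 ERK5-ko and 3 in Hs-578T MEK5DD, same-direction pairs 2 in MDA-MB-231 ERK5-ko and 1 in Hs-578T ERK5-ko, opposite pairs there 0. A fold limit of 1.5 both ways gave 16, 52, 50 and 37 lower calls in MDA-MB-231 ERK5-ko, MDA-MB-231 MEK5DD, Hs-578T ERK5-ko and Hs-578T MEK5DD, same-direction pairs of 2, 37, 12 and 1 and opposite pairs of 1, 5, 3 and 1. Limma voom gave 7 lower in MDA-MB-231 ERK5-ko, 27 lower in Hs-578T ERK5-ko, 25 higher MEK5DD differences between the lines, 2 and 6 same-direction pairs for the ERK5-ko comparisons, and 2 opposite head-to-head pairs between the lines. Median-ratio scaling gave 2 same-direction pairs in MDA-MB-231 ERK5-ko, 1 opposite pair in Hs-578T ERK5-ko and 2 opposite head-to-head pairs between the lines. With no filter on low values, 2 were lower in MDA-MB-231 ERK5-ko and 26 MEK5DD differences were higher. The 189 RNAs with a mean of at least 2 RPKM, a smaller set by construction, gave 3 higher and 2 lower in MDA-MB-231 ERK5-ko, 25 and 10 in MDA-MB-231 MEK5DD, 18 higher in Hs-578T ERK5-ko, 2 lower in Hs-578T MEK5DD, 27 higher ERK5-ko differences, 22 higher and 48 lower MEK5DD differences, and 65 and 31 between the lines.

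With 1 library left out, calls ranged from 3 to 9 higher and 2 to 4 lower in MDA-MB-231 ERK5-ko, 19 to 30 higher and 12 to 20 lower in Hs-578T ERK5-ko, and 1 to 20 higher in Hs-578T MEK5DD. ERK5-ko differences between the lines ranged from 34 to 71 lower and MEK5DD differences from 24 to 53 higher. Same-direction pairs ranged from 1 to 2 in MDA-MB-231 ERK5-ko, 1 to 6 in Hs-578T ERK5-ko and 0 to 1 in Hs-578T MEK5DD, and opposite pairs from 0 to 2 in Hs-578T ERK5-ko. Pairs with the antisense RNA inside ranged from 6 to 11 with MEK5DD in MDA-MB-231 and opposite head-to-head pairs between the lines from 1 to 2.

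Same-numbered libraries share only a number, and the correlations of their deviations from the group means ran from 0.0494 to 0.387. With a replicate block, 9 higher and 3 lower were called in MDA-MB-231 ERK5-ko and 51 higher in MDA-MB-231 MEK5DD, and of the calls on named RNAs that of RPPH1 was lost (adjusted p 0.054).

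Of the values of named RNAs under alternatives, 2019 kept direction and side of the limit, 62 lost it, 14 gained it and 11 changed sign, where no call was made in either setting. With 1 library left out, the log2 fold change of ZFAS1 ranged from -0.032 to 0.67 with MEK5DD and from -0.26 to 0.27 in ERK5-ko in Hs-578T (-0.048 without ERK5-ko replicate 2), and median-ratio scaling made the latter -0.013. That of RP4-614O4.11 in Hs-578T ranged from -0.41 to 0.11 with MEK5DD and from -0.034 to 0.48 in ERK5-ko. RP11-70C1.3 ranged from -0.18 to 0.30 with MEK5DD in Hs-578T and from -0.091 to 0.025 in MDA-MB-231. In Hs-578T ERK5-ko LOXL1-AS1 ranged from -0.13 to 0.043 and MMP25-AS1 from -0.032 to 0.24, and MMP25-AS1 in MDA-MB-231 ERK5-ko from -0.039 to 0.24. Depth limits the low RNAs, since a value of 2 RPKM or more rested on as few as 8 reads.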
